A study of Mus musculus and Rattus norvegicus with 4 samples.

Results

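A set of 10 genes of the Z-disc and its desmin collar were examined for MEF2A occupancy in differentiating C2C12 cells. The set held Flnc, Pdlim3, Ldb3, Csrp3, Myoz2, Mypn, Synpo2l, Xirp1, Xirp2 and Des, which make up 10 of 21887 mouse protein-coding genes. The list was chosen by name, with earlier results of these data known. The series comprised 4 ChIP-exo libraries. Immunoprecipitation with a MEF2A antibody and with normal rabbit IgG was done in C2C12, a skeletal muscle myoblast line of the mouse kept for 48 h in differentiation medium with 2% horse serum, and likewise in primary cardiomyocytes of rats aged 1 to 3 days. In ChIP-exo an exonuclease trims the immunoprecipitated DNA up to the bound protein, so that read ends mark its borders. Each group had 1 library, so no value has a replicate error and no difference was tested. The C2C12 MEF2A list held 2797 peaks, each with a position and the authors' score (higher for a stronger peak, lowest 50.08). Read depth is unknown, RNA was not measured in these libraries, and the sources used here do not say which fraction of the C2C12 cells had become myotubes. The 1868 rat peaks are not assigned to these genes because no rn5 annotation was used here.

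The Z-disc is the plate at each end of the sarcomere, where actin filaments of opposite polarity are crosslinked by alpha-actinin. Its proteins carry force between sarcomeres, and many also bind calcineurin, titin or signalling proteins. Desmin filaments surround the Z-discs and tie neighbouring myofibrils to each other and to the membrane. MEF2A belongs to the myocyte enhancer factor 2 family of MADS-box factors, which bind an A/T-rich element and regulate many genes of muscle structure.

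In the set, 8 of 10 genes (80.0%) had a MEF2A peak assigned to them, meaning that they were the nearest protein-coding span within 100 kb of it. Over all protein-coding genes the share was 7.73%. Because the genes were chosen with earlier results known, this contrast is a description and was not tested. Counting every gene within 100 kb of a peak, nearest or not, left 8 of 10, with a background of 22.0%. These 8 genes held 11 of the 2306 peaks assigned to any protein-coding gene. The 2 without a peak were Xirp2 and Ldb3. In the set 6 genes had exactly 1 peak, Xirp1 had 2 and Myoz2 had 3. Of all protein-coding genes 1.96% held 2 or more and 0.585% held 3 or more. The limit of 100 kb decided nothing closely, since the farthest assigned peak lay 18.7 kb from its gene (Myoz2). For the genes without an assigned peak, the shortest distance to a peak was 193 kb (Ldb3). Peaks 33.7 kb from Synpo2l and 55.2 kb from Pdlim3 were assigned to nearer genes.

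Sequence was at hand for 1 of the 11 peaks, that of Csrp3, because it lies inside a RefSeq promoter window of the gene. Csrp3 encodes muscle LIM protein, a Z-disc and nuclear protein that promotes myogenic differentiation. The peak covers chr7:48848055-48848251 (GRCm38.p6, the assembly behind mm10, minus strand) and runs from 200 to 4 bases before the outer of 2 listed start sites. It is shown 5′ to 3′ in the direction of the gene, with capitals on the 10 bases that match the MEF2 consensus with 1 mismatch.
Csrp3 peak: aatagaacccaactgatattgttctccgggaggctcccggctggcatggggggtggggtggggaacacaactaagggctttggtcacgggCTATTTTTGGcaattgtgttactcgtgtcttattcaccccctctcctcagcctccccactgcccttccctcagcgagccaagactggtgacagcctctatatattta

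No exact MEF2 consensus, CArG box (the element of serum response factor), AP-1 site (TGANTCA) or MCAT box (CATTCC, the element of TEAD factors) was found in these 197 bases on either strand. The capitals begin 110 bases before the start site. The same 10 bases also match the CArG box with 1 mismatch, so both elements were read from one stretch. Among 21263 promoter windows of protein-coding genes, cut to the same 197 bases, 17.3% held a MEF2 match with 1 mismatch and 14.2% a CArG match with 1 mismatch. An exact MEF2 consensus was in 1.98% of them. The E-box (CANNTG, the element of MyoD and its relatives) occurred at 2 places in the Csrp3 peak, and 54.3% of the windows of that length held at least 1.

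Exact MEF2 consensus sites stood in the promoters of 3 other members, each shown here as the 250 bases before a listed start site, with the site in capitals. Xirp2 is included because it had a site and no peak. Myoz2 and Synpo2l are included because their sites lay near peaks but outside them. The windows are chr2:67445752-67446001 (plus strand) for Xirp2, chr3:123034988-123035237 (minus strand) for Myoz2, and chr14:20664575-20664824 (minus strand) for the inner of 2 listed starts of Synpo2l, all from RefSeq on GRCm38.p6.
Xirp2: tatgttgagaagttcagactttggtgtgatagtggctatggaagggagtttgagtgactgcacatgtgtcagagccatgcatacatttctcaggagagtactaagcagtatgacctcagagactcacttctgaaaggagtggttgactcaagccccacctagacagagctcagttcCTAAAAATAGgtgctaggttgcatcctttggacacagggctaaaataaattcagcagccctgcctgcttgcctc
Myoz2: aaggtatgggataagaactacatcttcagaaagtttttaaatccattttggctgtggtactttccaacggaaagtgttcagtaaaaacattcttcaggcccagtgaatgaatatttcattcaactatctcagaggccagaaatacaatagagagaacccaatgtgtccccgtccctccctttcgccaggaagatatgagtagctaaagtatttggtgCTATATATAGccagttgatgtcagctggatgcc
Synpo2l, inner start: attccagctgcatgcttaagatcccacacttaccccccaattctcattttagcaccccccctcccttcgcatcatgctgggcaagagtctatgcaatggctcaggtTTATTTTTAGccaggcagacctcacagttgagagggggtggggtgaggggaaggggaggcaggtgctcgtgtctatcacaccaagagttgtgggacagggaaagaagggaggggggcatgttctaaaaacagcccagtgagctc

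The Xirp2 site begins 74 bases before its start, the Myoz2 site 33 bases and the Synpo2l site 144 bases. The window before the outer start of Synpo2l held a further exact site, 109 bases before that start. Promoter windows were listed for 9 of the 10 genes, all but Xirp1, and 3 of these 9 held an exact MEF2 consensus, against 3.12% of 17492 protein-coding genes with a listed window. Of the 70 windows (300 bases each) that overlapped any C2C12 peak, 10 (14.3%) held the consensus in those 250 bases, against 2.61% of all windows. Csrp3 was the 1 member with a peak over a promoter window, a position found for 0.372% of the protein-coding genes with a listed window. A match of letters describes the window and does not show binding, and a window without a match shows only that these letters are not in it.

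Other motifs were spread over the members as follows. The MCAT box was in the windows of Flnc, Pdlim3 and Mypn, 3 of 9 genes, against 13.5% of genes with a window. An AP-1 site was in those of Ldb3 and Xirp2, the pair without a peak, against 7.19% of genes. Of the 70 windows that overlapped any C2C12 peak, 5.71% held an AP-1 site, against 6.13% of all windows. Ldb3 also held the sole exact CArG box of the set, against 1.6% of genes. E-boxes were in 7 of 9, all but Flnc and Ldb3, and in 66.3% of genes with a window.

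The strongest of the 11 peaks belonged to Des, which encodes desmin, the muscle intermediate filament. Des lies on chromosome 1 at 75360292 to 75368579, on the plus strand. Its peak, at 75347271 to 75347744, scored 925 and ranked 38 of 2797. At 474 bp it was also the widest of the 11, against a median of 144 bp over all C2C12 peaks. It lay 12.5 kb upstream of the listed start, outside any annotated span. The next protein-coding gene, Speg, a striated muscle kinase gene, was 27.6 kb from it. Among the 1691 genes with a peak, Des ranked 37 by its highest score.

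Xirp1 had peaks on both sides of its span. Xirp1 and Xirp2 encode Xin repeat proteins, which bind and stabilise actin filaments at sites of myofibril assembly and repair. Xirp1 spans 120013755 to 120023598 on chromosome 9, a gene of 9.84 kb. The peak at 120024120 to 120024422 scored 216, ranked 391 and lay 522 bp beyond the higher-coordinate end. The peak at 120011531 to 120011780 scored 105, ranked 974 and lay 1.98 kb from the lower-coordinate end. The distance between them was 12.3 kb, so the gene sat between 2 peaks with no peak inside it. The weaker one also fell inside the span of Gm33800, a lncRNA gene. No start site was listed for Xirp1, so which peak lies upstream is not stated. The nearest other protein-coding genes were Cx3cr1, at 24.3 kb from the stronger peak, and Csrnp1, at 26.8 kb from the weaker.

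Xirp2, the paralogue of Xirp1, stood at the other extreme. It spans 67446000 to 67526620 on chromosome 2, and its nearest peak in the list was 1.30 Mb away, a peak of score 53.9 at 66144871 to 66144989. On the other side the first peak was 2.14 Mb away. Only 14.6% of protein-coding genes were as far from a peak or farther. The interval of 3.52 Mb without a peak contained 18 protein-coding genes and ranked 164 by length among the 2776 intervals between neighbouring peaks, whose median was 352 kb. The peak that closed it was that of Klhl41, a sarcomeric kelch protein gene described below.

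Among the PDZ-LIM and LIM proteins, Csrp3 and Pdlim3 had a peak and Ldb3 had none. Csrp3 spans 48830398 to 48848051 on chromosome 7, on the minus strand. Its peak of 197 bp, shown above, scored 146 and ranked 654, and ended 4 bp before the start site. The next protein-coding gene, E2f8, was 18.2 kb from it. Pdlim3 encodes ALP, the alpha-actinin-associated LIM protein. It spans 45885487 to 45919635 on chromosome 8, on the plus strand, and its peak at 45917672 to 45917783 scored 66.2 and ranked 1719. This peak lay inside the gene, 32.2 kb after the start and 1.85 kb from the far end. A second peak in the region, at 45830196 to 45830319 with a score of 73.0, was 55.2 kb from Pdlim3 but 2.29 kb from Sorbs2, an adaptor protein gene whose product is also found at Z-discs, and was counted there.

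Ldb3 encodes ZASP (also called Cypher), which couples alpha-actinin to protein kinase C and is mutated in human myofibrillar myopathy and cardiomyopathy. It spans 34526699 to 34590314 on chromosome 14. The nearest peak, at 34333825 to 34333963 with a score of 58.5, was 193 kb away. Of all protein-coding genes 65.7% were as far from a peak or farther, and 78.0% had no peak within 100 kb. On the other side the first peak was 1.75 Mb away.

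**Figure D1:**
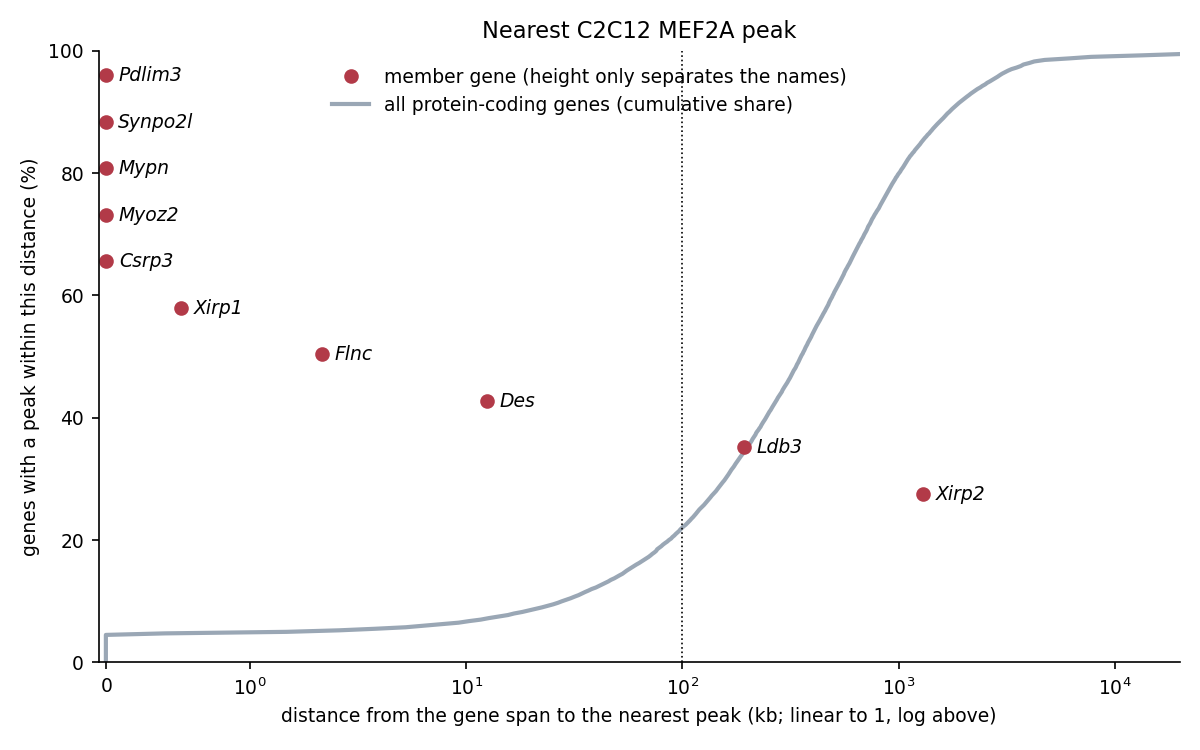
Distance from the gene span to the nearest C2C12 MEF2A peak, in kb on an axis that is linear to 1 and logarithmic above. Points are the 10 genes, with a height that only separates their names, the line is the cumulative percentage of all protein-coding genes, and the dotted line marks 100 kb. Of the 10 genes, 8 lie at 12.5 kb or less, while Ldb3 lies at 193 kb and Xirp2 at 1.30 Mb.

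Flnc encodes filamin C, the muscle filamin, an actin crosslinker that binds Xin proteins and myotilin at the Z-disc. It spans 29433153 to 29461889 on chromosome 6, on the plus strand. Its peak at 29430770 to 29430992 scored 136, ranked 720 and lay 2.16 kb upstream of the outer start. Ccdc136 was 3.77 kb from the same peak, the shortest distance to a second protein-coding gene among the 11.

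Myoz2, Synpo2l and Mypn, like Pdlim3, had peaks scoring below 100 inside their spans. Myoz2 encodes calsarcin-1, which tethers calcineurin to alpha-actinin. It spans 123006206 to 123035003 on chromosome 3, on the minus strand. Its 3 peaks scored 76.9, 63.7 and 51.5. The first, at 123018895 to 123019039, lay inside the gene 15.9 kb after the start. The second, at 123033942 to 123034061, lay 926 bp after the start and 950 bp from the MEF2 consensus site shown above. The third, at 123053687 to 123053937, lay 18.7 kb upstream, and its score, rank 2728 of 2797, was close to the lowest in the list. Synpo2, a gene for another actin-binding Z-disc protein, was the nearest other gene to the third, at 22.6 kb.

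Synpo2l encodes CHAP, a relative of Synpo2 in heart and skeletal muscle that binds alpha-actinin. It spans 20658945 to 20668354 on chromosome 14, on the minus strand. The peak at 20663842 to 20663977 scored 66.8 and ranked 1687. It lay 4.38 kb after the outer start and 597 bp after the inner start, and was 732 bp from the consensus site before the inner start. The nearest other gene was Myoz1, another calsarcin gene, at 7.30 kb. A peak of score 52.3 lay 33.7 kb from Synpo2l and 865 bp from Chchd1, a mitochondrial protein gene, and was counted there. Mypn encodes myopalladin, which links alpha-actinin, nebulin and ankyrin repeat proteins. It spans 63115795 to 63203952 on chromosome 10, on the minus strand, and its peak at 63128520 to 63128631 scored 55.8 and ranked 2325. This peak was 75.3 kb after the start and 12.7 kb from the far end.

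**Figure D2:**
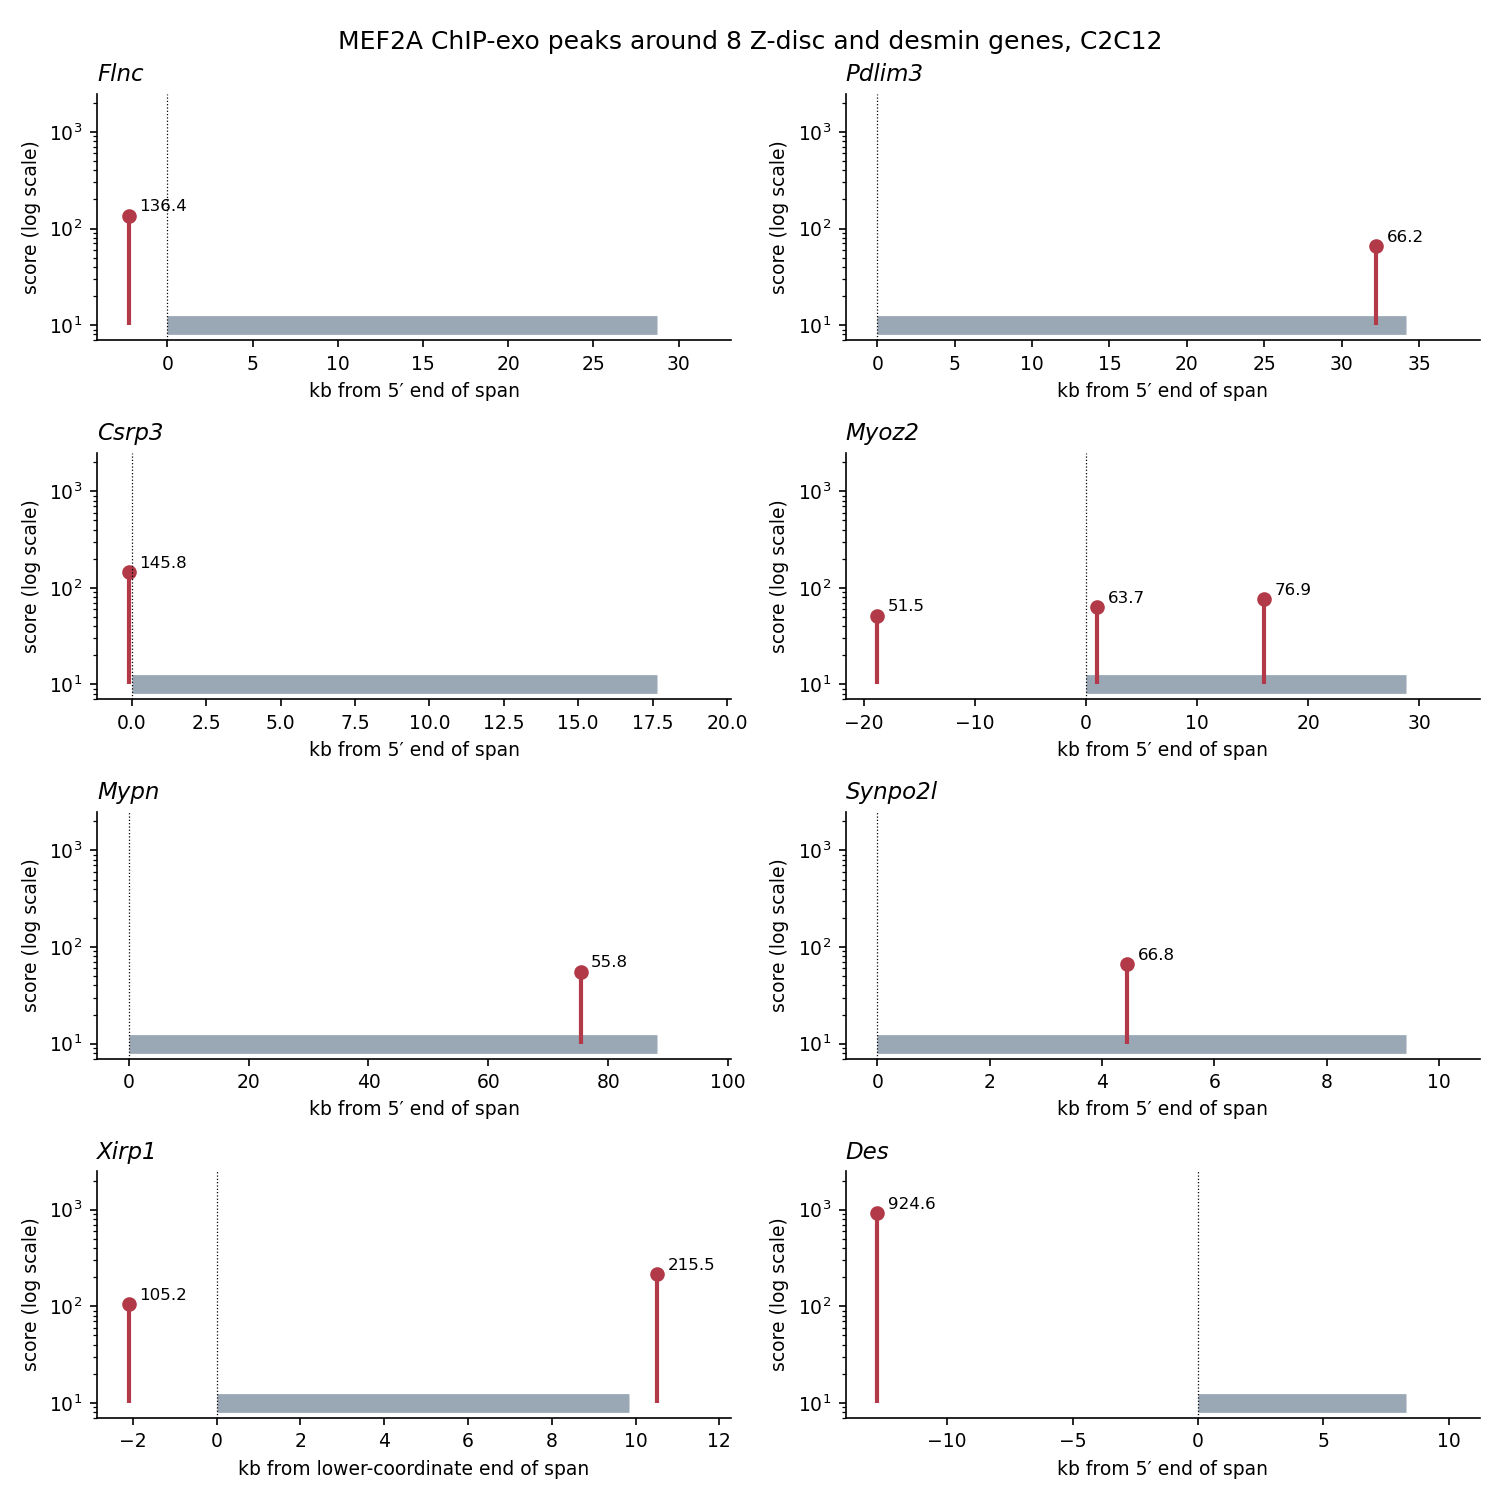
MEF2A peaks at the 8 genes with a peak. Grey bars are gene spans drawn from the 5′ end (for Xirp1 from the lower-coordinate end) in kb, and each red stem is a peak at its centre, with the authors' score as height on a log axis and as the number beside it. The peaks of Des, Flnc, Csrp3 and Xirp1 lie outside the span, while Pdlim3, Mypn and Synpo2l hold theirs inside and Myoz2 has peaks of both kinds.

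Of the 5 peaks scoring 100 or more, at Des, Xirp1, Csrp3 and Flnc, 0 lay inside the gene, against 55.7% of the 860 assigned peaks of such scores. Of the 6 peaks below 100, 5 lay inside (83.3%), all but the upstream peak of Myoz2, against 57.9% of the 1446 assigned peaks below 100. With 11 peaks this split is a description and was not tested. Span lengths were not matched in these comparisons. Des, Xirp1, Csrp3 and Flnc span 8.29, 9.84, 17.7 and 28.7 kb. Synpo2l, Myoz2, Pdlim3 and Mypn, which had peaks inside, span 9.41, 28.8, 34.1 and 88.2 kb. In all, 5 of the 11 peaks (45.5%) were inside the gene, against 57.1% of all assigned peaks. A peak scoring 100 or more was found for 4 of the 10 genes, against 3.47% of all protein-coding genes. At 200 or more, Des and Xirp1 remained, 2 of 10, against 1.53%. In 4 genes a peak lay inside the span, against 4.57%. Within 5 kb of either end of the span, 6 of 10 had a peak (Flnc, Pdlim3, Csrp3, Myoz2, Synpo2l and Xirp1), against 2.27%. This distance of 5 kb was chosen after seeing the data.

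The 11 peaks had a spread of scores much like that of the list. Their median score was 76.9, against 77.0 over all C2C12 peaks, and 45.5% scored 100 or more, against 36.8%. The median of the highest score per gene was 107 over the 8 members with a peak and 88.7 over all 1691 genes with one. The median width of the members' peaks was 197 bp (112 to 474 bp), against 144 bp.

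Other Z-disc and filament genes were taken from a list of 56 assembled by the known place or partners of their products. Like the set, this list was made with earlier results of these data known. Of the 56 genes, 13 (23.2%) had an assigned peak, against the same background of 7.73%, with 25 peaks in all. Counting every gene within 100 kb of a peak, nearest or not, gave 21 of the 56 genes, against 22.0% of all protein-coding genes. The share was 2 of 16 for structural Z-disc proteins, 3 of 14 for LIM and PDZ-LIM proteins, 1 of 4 for filamins and alpha-actinins, 5 of 12 for chaperones and ubiquitin ligase adaptors, and 2 of 10 for the intermediate filament network. None of the alpha-actinin genes Actn1, Actn2, Actn3 and Actn4 had an assigned peak. Nor had Tcap (telethonin), Myot (myotilin), Myoz1, Myoz3, or Neb and Nebl (nebulin and nebulette). Of these genes, Actn2, Myoz1 and Myoz3 had a peak within 100 kb that was assigned to a nearer gene.

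The 2 structural genes with peaks carried high scores. Synpo2 had 3, scoring 517, 261 and 87.5, and Palld, encoding the actin-bundling protein palladin, had 3, scoring 493, 396 and 62.2. Both had the strongest of these inside the span. Among the chaperones, Hspb7, a small heat shock protein that binds filamin C, had 3 peaks, with the strongest (492) 532 bp from the gene. Cryab, encoding the desmin chaperone alpha-B crystallin, held a peak of 306. Dnajb6, a co-chaperone mutated in human limb-girdle muscular dystrophy, had a peak of 311 at 77.9 kb and a weak one of 50.7. Klhl41 had a peak of 117 at 265 bp, and Hspb1 held one of 52.4.

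Of the LIM proteins, Fhl3 held a peak of 149, Fhl2 had 4 with the strongest (134) 54.8 kb away, and Fblim1 had 1 of 55.5 at 3.06 kb. Plec, encoding the linker plectin that anchors desmin at Z-discs, held peaks of 238, 113 and 74.1. Lmna, the nuclear lamin A and C gene, held one of 102, and Flna, the widely expressed filamin, one of 53.2. Vim, Nes, Synm and Sync, which encode filament partners of desmin, had no assigned peak. A peak within 100 kb of Synm was assigned to a nearer gene. Of the 13 genes, 10 reached a score of 100, as did 759 of all 1691 protein-coding genes with a peak. The median of the highest scores was 149 over the 13 genes and 88.7 over the 1691.

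**Figure D3:**
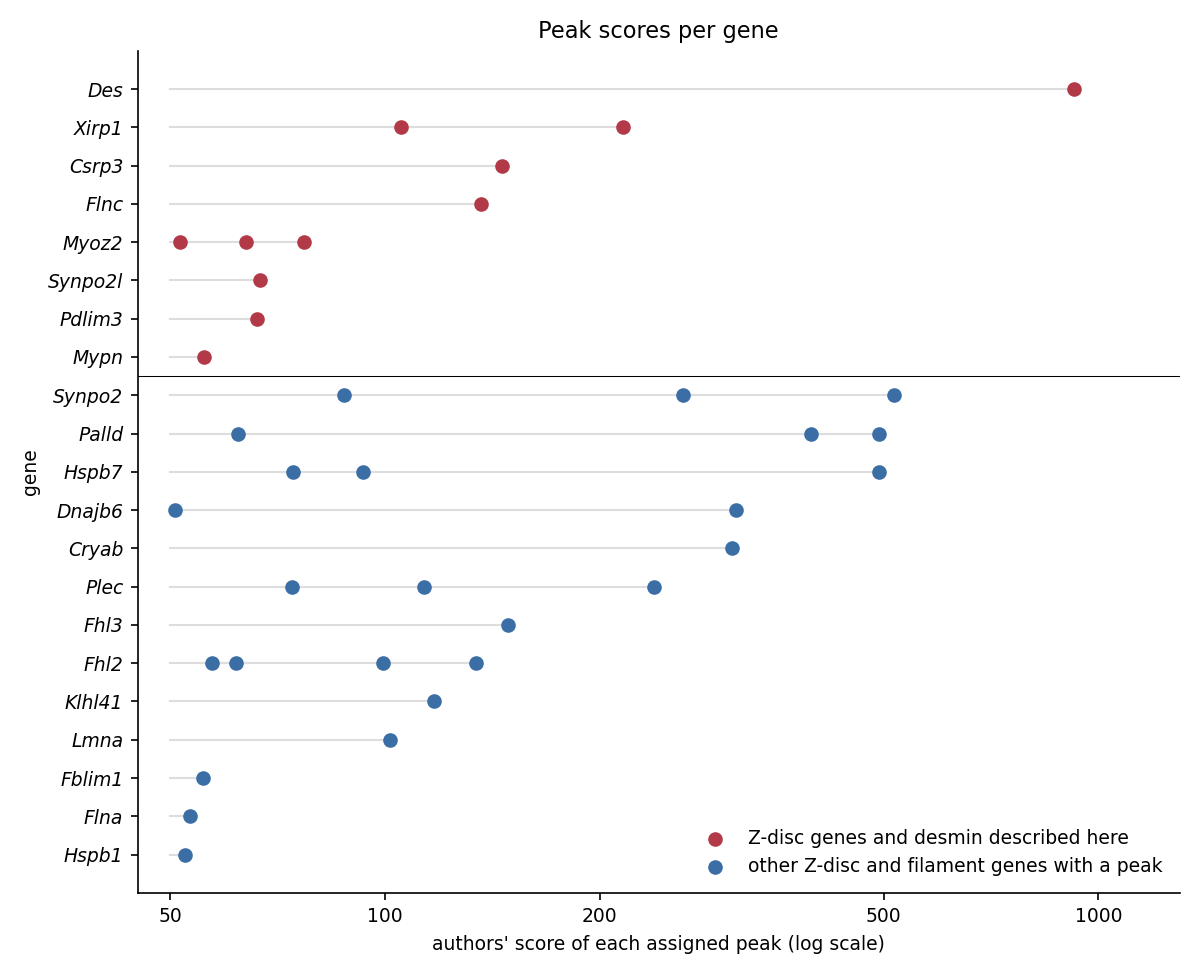
Authors' score of every assigned C2C12 MEF2A peak, on a log axis, for the 8 member genes with a peak (red, above the line) and the 13 other Z-disc and filament genes with one (blue). Des at 925 has the highest score of the 21 genes drawn, followed by Synpo2 at 517. By the highest score per gene, Mypn, Fblim1, Flna and Hspb1 come last, near the lowest score in the list. Weaker peaks of Dnajb6 (50.7) and Myoz2 (51.5) lie lower still.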

How the data were processed

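MEF2A complexes were immunoprecipitated from sonicated nuclei and ChIP-exo libraries were selected on a gel, per the labels' protocols. Per the submitters' processing notes, MACS 1.4.2, BWA 0.5.9, SAMtools, Picard and CASAVA 1.7.0 were used with the builds rn5 and mm10; settings are not given. For each MEF2A library the authors deposited 1 peak list with a score per peak, whose scale is not stated, so the score ranks peaks within a list only. Neither IgG library was analysed here, and the sources used here do not say if MACS used them as control. Sites below the lowest listed score are unknown. The rat labels carry the C2C12 treatment text, so no treatment is stated for the cardiomyocytes.

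Samples were grouped by title. Peaks went to the closest protein-coding span, up to 100 kb away (distance 0 inside), in the RefSeq gene table of GRCm38.p6, which gives no exons. Start sites, strands and sequences came from the RefSeq promoter table (250 bases before to 50 after each start), and all 5 motifs were searched on both strands in the first 250. The members and lists were chosen with earlier results of these data known, so counts are set beside the share of all genes without a test. Genes named are the 10 members, genes nearest their peaks and the listed genes with a peak; genes without one are named without values. Assignment and motif search were checked on simulated data. Alternatives were other scores, distances, gene sets and assignments, merging of peaks, and leaving out wide peaks. Python 3.11.15, numpy 2.4.6, pandas 2.3.3 and matplotlib 3.10.9 were used.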

Additional observations from a re-analysis of the deposited data

How the results depend on the processing

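With a score of at least 100, the 10 genes had 5 peaks at 4 genes and 3.47% of all genes had one, and with at least 200 they had 2 peaks at 2 genes, against 1.53%, while the wider list gave 6 genes at 200. With a limit of 10 kb Des had no peak and so no value. Counting every gene within 100 kb of a peak raised the share of all genes to 22.0% and the wider list to 21 genes, left 8 members with a peak, and gave Pdlim3 the peak of 73.0 near Sorbs2. Counting peaks within 5 kb of either end, a setting chosen after seeing the data, gave 2.27% of all genes. With 1 mismatch allowed, 1 member's peak with known sequence held a MEF2 match, against 0 for exact matches, also when the peak was widened by 50 bp on each side. Limits of 10 and 50 kb, nearest span ends, all annotated genes, merging under 1 kb and leaving out peaks over 2 kb wide kept the counts of members, their peaks and the wider list within 1.5 times. Without depths or replicates, the recurrence of the weaker peaks cannot be judged. No paired analysis was possible because there is 1 library per group.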
